A study of Mus musculus with 3 samples.

Results

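The 10 genes described here act at the start of meiosis, when the fetal oocyte enters meiotic prophase, pairs its homologous chromosomes and recombines them. They are Stra8 and Meioc (meiotic entry), Spo11 and Prdm9 (DNA breaks), Dmc1 (strand exchange), Sycp1, Sycp2, Sycp3 and Hormad1 (chromosome axis and synapsis) and Mlh3 (crossover formation). They were chosen by name, and each was measured over every 2 kb window that overlaps its gene body in the GENCODE M21 annotation of the mouse genome (GRCm38). The 10 genes cover 190 of the 1186323 windows in the data, and are among 20339 protein-coding genes with at least 2 windows.

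H3K36me3, trimethylation of lysine 36 on histone H3, was mapped with a native ChIP-seq protocol for ultra-low input, in which nuclease-digested chromatin of few cells is precipitated without crosslinking. There were 3 replicates of a single group, each a pool of approximately 280 germinal vesicle (GV) oocytes, the fully grown oocytes still arrested in prophase, from wildtype C57BL6/Babr mice aged 25 days. No other genotype, age or treatment was profiled, so each comparison below is between genomic regions within the same pools. The windows held 7888140 reads in replicate 1, 2692510 in replicate 2 and 3166564 in replicate 3, and the amount of antibody used for replicate 2 was smaller than for replicates 1 and 3. The labels do not state which animals went into which pool, so the p-values below cover no more than these 3 pools. The spread they use is that between pools, moderated by limma toward genes with similar numbers of reads.

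Meiotic prophase begins with a burst of transcription of germ line genes, followed by programmed double-strand breaks, invasion of the homologue by the broken ends, assembly of the synaptonemal complex between homologues and the resolution of some breaks as crossovers. In the mouse ovary these steps are finished around birth, before the oocyte grows. H3K36me3 is laid down by methyltransferases that travel with elongating RNA polymerase II and therefore marks the bodies of transcribed genes, whereas H3K4me3 marks active or poised promoters and, in oocytes, broad domains, and H3K27me3 is the mark of Polycomb repression. The question asked of these genes was which of them still carried H3K36me3 in the grown oocyte and which carried the other marks.

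Levels are the authors' RPKM values, averaged over the windows of a gene and so compared per length. A window was called enriched by the study when its mean over the replicates was above 1. For orientation, windows outside any annotated gene (intergenic) averaged 0.569 ± 0.024 (SD, n = 3) and windows inside genes 1.25 ± 0.03. The value of 1 read in a window was 0.136 in replicate 1, 0.396 in replicate 2 and 0.338 in replicate 3, so single windows in replicates 2 and 3 rest on few reads. A check of the labelled cell type was made with marker genes. All 12 oocyte markers tested lay above intergenic windows, with levels from 1.20 (Npm2) to 3.73 (Bmp15). None had an H3K27me3 window, whereas 44.5% of protein-coding genes did. Of 10 granulosa cell markers, 6 lay above intergenic windows and 1 below (56.7% and 18.9% of all protein-coding genes did). Their levels ran from 0.353 (Fshr) to 2.02 (Nr5a2), with none at 0, and 6 of the 10 had an H3K27me3 window. The part of somatic cells in the levels given here was not tested.

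The 10 genes differed in mark already at their starts, and promoters of 3 genes are shown as examples of the states found there (RefSeq, GRCm38.p6, 250 bases before to 50 bases after the start). They were picked after the values were seen. In the window of its start, Hormad1 was called for both H3K4me3 and H3K27me3, Dmc1 for H3K4me3 alone, and Sycp2 for H3K4me3 together with H3K36me3. Capitals mark matches, on either strand, to CACGTG, the E-box that some basic helix-loop-helix factors bind, and to TCCCGC, a core of the sites of E2F family factors.
Hormad1, chr3:95559427-95559726, plus strand: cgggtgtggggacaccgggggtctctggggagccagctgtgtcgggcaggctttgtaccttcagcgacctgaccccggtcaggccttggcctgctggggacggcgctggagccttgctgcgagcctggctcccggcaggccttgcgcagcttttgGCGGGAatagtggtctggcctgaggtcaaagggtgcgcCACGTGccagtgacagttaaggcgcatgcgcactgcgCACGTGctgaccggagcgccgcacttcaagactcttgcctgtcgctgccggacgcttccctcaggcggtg
Dmc1, chr15:79605060-79605359, minus strand: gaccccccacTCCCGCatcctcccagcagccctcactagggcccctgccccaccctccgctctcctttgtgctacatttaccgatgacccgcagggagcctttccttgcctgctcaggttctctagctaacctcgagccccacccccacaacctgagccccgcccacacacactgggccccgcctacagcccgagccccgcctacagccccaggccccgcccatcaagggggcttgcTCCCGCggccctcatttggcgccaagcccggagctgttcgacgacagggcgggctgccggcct
Sycp2, chr2:178407609-178407908, minus strand: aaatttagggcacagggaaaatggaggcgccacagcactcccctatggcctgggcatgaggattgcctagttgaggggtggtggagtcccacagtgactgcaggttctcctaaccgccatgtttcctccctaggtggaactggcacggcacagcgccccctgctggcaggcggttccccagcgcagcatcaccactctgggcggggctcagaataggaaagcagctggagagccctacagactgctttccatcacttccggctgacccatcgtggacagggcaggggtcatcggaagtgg

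The Hormad1 promoter held 2 matches to CACGTG and 1 to TCCCGC, the Dmc1 promoter 2 matches to TCCCGC, and the Sycp2 promoter neither. No matches overlapped each other. Promoters of 9 of the 10 genes were in the RefSeq table, and Spo11 is the one not shown there. Of these 9, CACGTG was found in 3 (Sycp1, Sycp3 and Hormad1) and TCCCGC in 6 (Meioc, Prdm9, Dmc1, Sycp1, Sycp3 and Hormad1). Over all 32851 promoters of the table, CACGTG was found in 7.15% and TCCCGC in 19.98%, and both in 1.99%. CpG dinucleotides numbered 24 in the Hormad1 promoter, 18 in that of Dmc1 and 10 in that of Sycp2, and between 10 and 28 in all 9, against a median of 7 (quartiles 3 and 20) over the table. The RefSeq starts of Stra8 and Meioc lie 785 and 1869 bases from their GENCODE starts, and for Meioc the RefSeq promoter lies in another window than the one used here as the gene start. These matches describe the letters only, since no factor was measured.

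Among the 10 genes, Dmc1, Sycp2, Mlh3 and Sycp3 had mean H3K36me3 levels above 1, whereas 53.8% of all protein-coding genes did. Tested against intergenic windows of the same replicate, 5 genes were higher (Dmc1, Sycp2, Mlh3, Sycp3 and Prdm9), beside 56.7% of protein-coding genes, and 1 was lower (Spo11), beside 18.9%. The other 4 (Sycp1, Stra8, Meioc and Hormad1) did not pass the test in either direction (limma, Benjamini-Hochberg adjusted p over all genes below 0.05). The genes spanned most of the range of protein-coding genes, of which 91.1% had a level below that of Dmc1 and 6.87% a level below that of Spo11. The calls of Dmc1, Sycp2, Mlh3 and Spo11 held under all 10 alternatives tried. Set against the mean of all windows of the genome, 0.902, instead of intergenic windows, 3 genes were higher (Dmc1, Sycp2 and Mlh3) and 5 lower (Spo11, Sycp1, Stra8, Meioc and Hormad1).

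**Figure D1:**
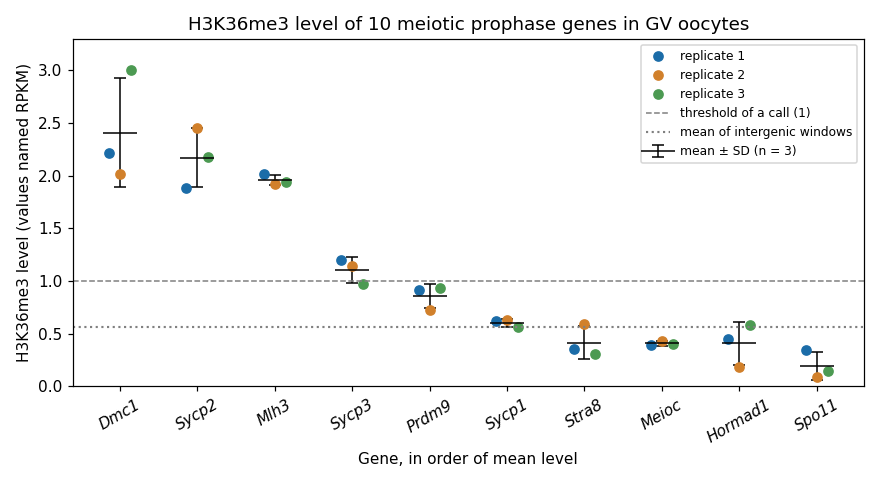
H3K36me3 level (authors' RPKM values, mean over a gene's windows, vertical axis) of each of the 10 genes (horizontal axis), with a point for each replicate and bars for the mean ± SD (n = 3). The dashed line is the threshold of a call (1) and the dotted line the mean of intergenic windows (0.569), and Dmc1, Sycp2 and Mlh3 lie at 1.89 or above in every replicate while Spo11 lies between 0.0881 and 0.347.

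Stra8, the retinoic acid-induced gate-keeper of meiotic entry (chr6:34920163-34939344, plus strand, ENSMUSG00000029848.11), had levels of 0.353, 0.595 and 0.305 in replicates 1, 2 and 3, with a mean of 0.417 ± 0.155 (SD, n = 3) over 10 windows. Replicate 2 lay at the intergenic mean of that replicate, 0.573, and the others below theirs, and no window had a mean above 0.577. On the scale of log2(level + 0.1) Stra8 differed from intergenic windows by -0.41 ± 0.30 (SE), which did not pass the limma test (adjusted p = 0.223). None of its windows was called for H3K36me3, whereas all 10 were called for H3K27me3 and 8 also for H3K4me3. The nearest genes differed from each other, and neither had a lower mean level than Stra8. Wdr91, upstream on the other strand, had a level of 2.75 ± 0.47, and Slc23a4, downstream, 0.498 ± 0.180. The window calls of H3K27me3 began approximately 4 kb upstream of Stra8 and ran through to the end of the gene. They resumed after an uncalled window downstream and continued into Slc23a4.

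Meioc, which with its partner YTHDC2 sustains the prophase programme (chr11:102663716-102682237, plus strand), was equally low and varied little, at 0.395, 0.432 and 0.400, with a mean of 0.409 ± 0.020 (SD, n = 3) over 11 windows. No window of Meioc was enriched for H3K36me3, and the highest was 0.822. The difference from intergenic windows was -0.39 ± 0.27 (SE) on the log2 scale, with a limma adjusted p of 0.202. In contrast to Stra8, the other marks were restricted to the beginning of Meioc: 3 windows were called for H3K4me3 and 2 for H3K27me3, and 8 of the 11 carried none of the 3 marks. Ccdc43, downstream of Meioc on the opposite strand, had a lower level, 0.297 ± 0.134. Both entry genes rest on few reads, 50 for Stra8 and 57 for Meioc over the 3 replicates.

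Spo11, the topoisomerase-like enzyme that makes the programmed breaks (chr2:172977700-172993576, plus strand), had the lowest level of the 10 genes. Its levels were 0.347, 0.0881 and 0.150, with a mean of 0.195 ± 0.135 (SD, n = 3) over 9 windows. They rest on 23, 2 and 4 reads. All replicates were below the intergenic mean, by -1.28 ± 0.36 (SE) on the log2 scale (limma adjusted p = 0.00507). It was the one gene of the 10 called lower, and every window was called for H3K27me3, including the start. The start was not called for H3K4me3, which was found in 1 window in the middle of the gene. The H3K27me3 calls also covered all windows for 10 kb upstream and the first window downstream, and then stopped before Rae1, an mRNA export factor gene with an H3K36me3 level of 2.74 ± 0.46. The exact Poisson 95% interval of the Spo11 level in replicate 2 ran from 0.0107 to 0.318. These intervals cover counting error only, and reads may include PCR copies.

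Prdm9, the zinc finger methyltransferase that places breaks at hotspots by writing H3K4me3 and H3K36me3 there (chr17:15543079-15564354, minus strand), was intermediate. The levels were 0.917, 0.727 and 0.931, with a mean of 0.858 ± 0.114 (SD, n = 3) over 12 windows. Every replicate lay above the intergenic mean and below 1. The difference from intergenic windows was 0.51 ± 0.19 (SE) on the log2 scale (limma adjusted p = 0.0238). This call did not hold without replicate 1 (adjusted p = 0.139) or without replicate 3 (adjusted p = 0.0910), or when windows shared with another gene were left out (adjusted p = 0.116), and against the mean of all windows of the genome the difference was -0.072 (adjusted p = 0.697). H3K36me3 was called in 5 windows in the middle of the gene, 4 of them in a run of 8 kb (chr17:15548001-15556000) with a level of 1.38 ± 0.10. A processed pseudogene, Gm18564, lies inside Prdm9 and shares 3 of its windows. The start and end were called for H3K4me3, and no window of the gene for H3K27me3, although windows called for H3K27me3 lay within 10 kb on both sides.

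Dmc1, the meiotic recombinase that carries broken ends into the homologue (chr15:79561497-79605109, minus strand), had the highest mean level, with 2.21, 2.02 and 3.00 in replicates 1, 2 and 3 and a mean of 2.41 ± 0.52 (SD, n = 3) over 23 windows. Replicate 3 stood above the others, and its counting interval (2.60 to 3.44) did not meet those of replicate 1 (2.00 to 2.45) or replicate 2 (1.67 to 2.42). All 3 exceeded the intergenic mean, by 1.89 ± 0.12 (SE) on the log2 scale, a fold of 3.70 on the level + 0.1 scale (limma adjusted p = 1.64e-09). H3K36me3 covered the gene almost in full. A single run of 22 enriched windows (chr15:79560001-79604000, 44 kb) began right after the start window, whose level was 0.542, and ended with the last window of the gene, and 17 of these windows were above 1 in every replicate. H3K4me3 was called at the start and in 3 other windows, and H3K27me3 in none.

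Sycp1, the transverse filament that zips homologues together (chr3:102818499-102936100, minus strand), is the longest of the genes, and 51 of its 60 possible windows passed the authors' filter on input chromatin. Its levels were 0.620, 0.630 and 0.564, with a mean of 0.605 ± 0.035 (SD, n = 3). The replicates were close together and close to the intergenic mean, from which the gene differed by 0.07 ± 0.11 (SE) on the log2 scale (limma adjusted p = 0.546). Against the mean of all windows it was lower, by -0.51 (adjusted p = 0.00177). With 399 reads the depth behind this gene was greater than for the other genes that were not called. The level was uneven along the gene. H3K36me3 was called in 10 scattered windows in runs of at most 6 kb, the highest at 2.12, and 3 of them were above 1 in all replicates. Its start was called for H3K4me3 and H3K27me3, and 37 windows carried no mark. Sycp1 was the only one of the 10 genes with windows of H3K36me3 and windows of H3K27me3, at separate places. Nr1h5, upstream of Sycp1 on the same strand, had a lower level, 0.255 ± 0.057.

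Sycp2, a component of the chromosome axis (chr2:178345293-178407685, minus strand), was marked along nearly all of its length, with levels of 1.89, 2.45 and 2.18 and a mean of 2.17 ± 0.28 (SD, n = 3) over 32 windows. Each replicate was more than 3 times the intergenic mean, and the difference was 1.76 ± 0.10 (SE) on the log2 scale (limma adjusted p = 6.03e-10). H3K36me3 was called in 31 windows. A run of 60 kb (chr2:178340001-178400000) covered 28 windows of the gene and 2 beyond its end that overlap no annotated gene. The next gene downstream, Phactr3 on the opposite strand, had a level of 1.86 ± 0.11, and the run did not reach it. Of the 10 genes, Sycp2 alone had H3K36me3 in its start window, at a level of 1.79, beside H3K4me3.

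Sycp3, the partner of SYCP2 in the axis (chr10:88459569-88473236, plus strand), had levels of 1.21, 1.14 and 0.973 and a mean of 1.11 ± 0.12 (SD, n = 3) over 8 windows. The replicates fell on both sides of 1 and all lay above the intergenic mean, by 0.85 ± 0.20 (SE) on the log2 scale (limma adjusted p = 0.00149). Against the mean of all windows in the genome the call was lost (adjusted p = 0.206). All 8 windows of Sycp3 are shared with Chpt1, a choline phosphotransferase gene of the opposite strand that spans it, and the 19 windows of Chpt1 outside Sycp3 had a level of 0.987 ± 0.248. The reads carry no strand, so the levels of Sycp3 and Chpt1 cannot be told apart. H3K36me3 was called in 5 windows, H3K4me3 in 2 including the start, and H3K27me3 in none.

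Hormad1, which licenses breaks and monitors synapsis on the axis (chr3:95559677-95587671, plus strand), had levels of 0.453, 0.185 and 0.587 and a mean of 0.408 ± 0.204 (SD, n = 3) over 15 windows. Replicate 2 was lowest, with 7 reads, and replicate 3 lay above the intergenic mean of that replicate, 0.544, while the others lay below theirs. The difference of -0.49 ± 0.28 (SE) on the log2 scale did not pass (limma adjusted p = 0.123). No window was enriched for H3K36me3, 6 were called for H3K4me3, 2 at the start also for H3K27me3, and 9 carried no mark. Both neighbours were higher, with levels of 1.49 ± 0.19 for Ctss upstream and 1.18 ± 0.09 for Golph3l downstream.

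Mlh3, a mismatch repair protein that resolves crossover intermediates (chr12:85234520-85270599, minus strand), gave nearly the same level in each replicate, 2.02, 1.92 and 1.94, with a mean of 1.96 ± 0.05 (SD, n = 3) over 19 windows. It exceeded intergenic windows by 1.62 ± 0.10 (SE) on the log2 scale (limma adjusted p = 1.90e-09). H3K36me3 was called in 15 windows, most of them in a run of 24 kb (chr12:85230001-85254000) that continued for 2 windows beyond the end of the gene. The mark was low over the beginning: the start window had a level of 0.407 and the next 4 between 0.723 and 1.17, whereas windows further along reached 3.91. H3K4me3 was called in 3 of these first windows and H3K27me3 in none of the gene.

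**Figure D2:**
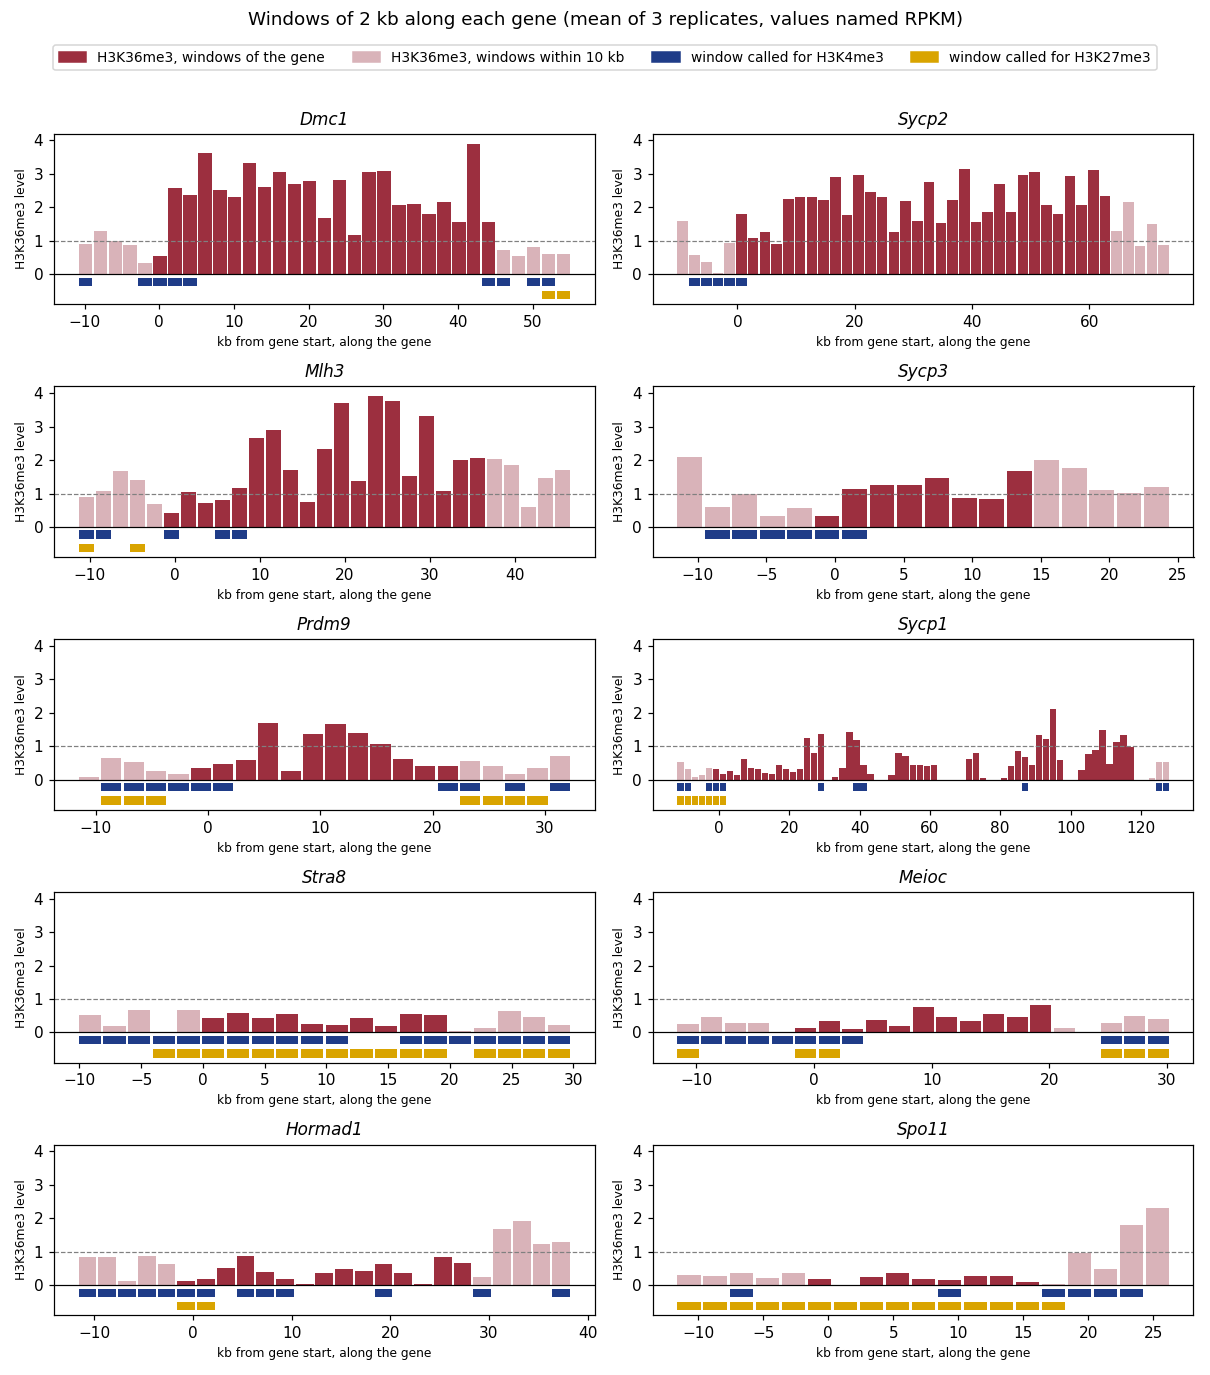
H3K36me3 level (mean of 3 replicates, vertical axis) of each 2 kb window along the 10 genes, by distance in kb from the gene start in the direction of transcription; dark bars are windows of the gene and pale bars windows within 10 kb, and strips mark windows called for H3K4me3 and H3K27me3. Dmc1 and Sycp2 are filled with windows above the dashed threshold of 1, Mlh3 climbs after its first windows to 3.91, and Stra8 and Spo11 carry the H3K27me3 strip throughout.

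In the order of levels, neighbours among Dmc1, Sycp2 and Mlh3 did not differ beyond their spread: Dmc1 was above Sycp2 in 2 of 3 replicates and Sycp2 above Mlh3 in 2 of 3. The step from Mlh3 to Sycp3 was the widest, 0.853 ± 0.101 (SD of the difference, n = 3), in 3 of 3 replicates. Prdm9 lay below Sycp3 by 0.248 ± 0.189 and Sycp1 below Prdm9 by 0.253 ± 0.140, each in 3 of 3. Stra8, Meioc and Hormad1 could not be put in an order, since neighbours in that order kept its direction in only 1 of 3 replicates. Spo11 was below Hormad1 in 3 of 3 by 0.213 ± 0.193. In pooled oocytes, a mark present in a share of the cells and a lower density of the mark in every cell cannot be told apart.

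Whether the mark followed the gene was examined by setting each gene against the valid windows within 10 kb on either side. The gene was higher than its surroundings for Dmc1, Sycp2, Prdm9 and Mlh3, 4 of 10 beside 31.6% of protein-coding genes, and lower for Spo11 and Hormad1, 2 of 10 beside 9.23%. Dmc1 stood out most from its surroundings, whose level was 0.773, by 1.51 ± 0.19 (SE) on the log2 scale (limma adjusted p = 2.42e-04), followed by Sycp2 by 1.03 ± 0.18 (adjusted p = 0.00107). These 2 calls held under all 6 alternatives tried. Prdm9 exceeded its flanks by 1.01 ± 0.30 (limma adjusted p = 0.0189), and Mlh3, whose flanks had a level of 1.34, by 0.54 ± 0.17 (adjusted p = 0.0220). Both of these calls were lost with flanks of 5 kb. That of Prdm9 was also lost with flanks of 20 kb, without replicate 1 (limma adjusted p = 0.0667) and without replicate 3 (0.107), and that of Mlh3 without replicate 2 (0.0949) and without replicate 3 (0.0795).

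Spo11 and Hormad1 were lower than their surroundings, in both cases with higher windows downstream. Spo11 was lower than its flanks, which had a level of 0.714, by -1.51 ± 0.40 (SE) on the log2 scale (limma adjusted p = 0.00979), and Hormad1 was lower than its flanks, at 0.973, by -1.16 ± 0.34 (adjusted p = 0.0163). The downstream flank of Spo11 reached 2.31 within Rae1, and that of Hormad1 reached 1.93 within Golph3l. Both calls were lost with flanks of 5 kb and without replicate 1 (limma adjusted p = 0.0732 for Spo11 and 0.0644 for Hormad1), and that of Hormad1 also without replicate 2 (0.132). Sycp3 was not told from its flanks, which had a level of 1.17 (-0.05 ± 0.24, limma adjusted p = 0.883), but was lower by -0.58 with flanks of 20 kb (adjusted p = 0.0347). Sycp1 differed from flanks at 0.311 by 0.81 ± 0.32, which did not pass (limma adjusted p = 0.0656), although with flanks of 5 kb the difference was 1.67 and passed (adjusted p = 0.0485), and neither Stra8 nor Meioc passed. With flanks of 20 kb, which take in part of Wdr91, Stra8 was lower by -1.35 (limma adjusted p = 0.00457).

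H3K36me3 is known to increase along the body of transcribed genes. The later part of each gene, from its midpoint to its end, was therefore compared with the earlier part. Mlh3 was the only one of the 10 genes that passed, with levels of 2.53 in the later and 1.45 in the earlier part and a difference of 0.78 ± 0.22 (SE) on the log2 scale (limma adjusted p = 0.0389), beside 17.1% of protein-coding genes with a rise and 2.55% with a fall. The call was lost on leaving out any 1 of the replicates (adjusted p from 0.110 to 0.208) and when the 2 windows shared with small genes inside Mlh3 were left out (0.0651). Dmc1 had levels of 2.25 in its later and 2.59 in its earlier part (-0.15 ± 0.15, limma adjusted p = 0.520), and Sycp2 2.37 and 1.98 (0.23 ± 0.13, adjusted p = 0.263). Sycp1, low on average, had 0.754 in its later and 0.482 in its earlier part, a difference of 0.55 ± 0.18 that did not pass (limma adjusted p = 0.0667). The remaining 6 genes did not pass either.

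**Figure D3:**
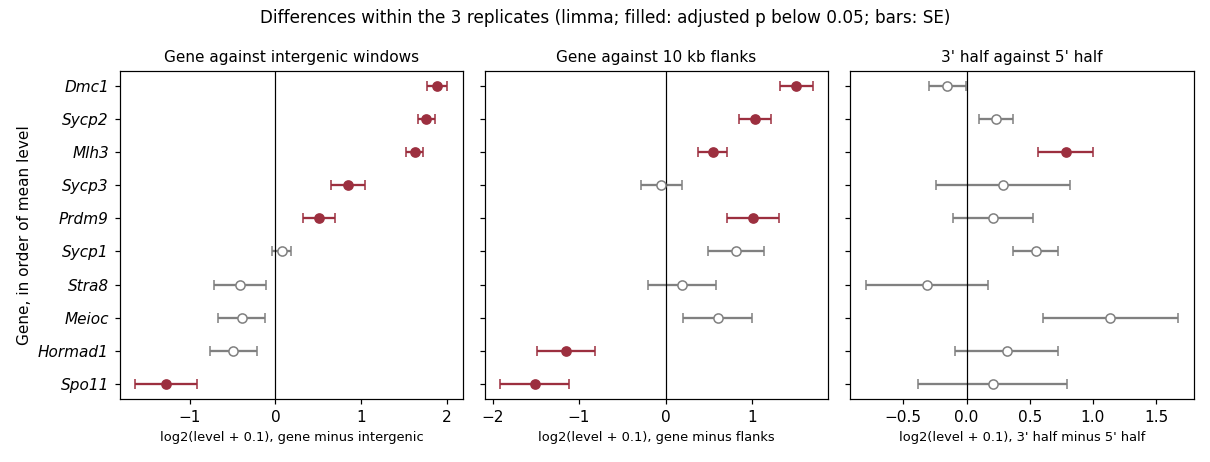
Differences on the scale of log2(level + 0.1) for the 10 genes (rows), between the gene and intergenic windows (left), the gene and its 10 kb flanks (middle) and the later (3') and earlier (5') part of the gene (right). Points are limma estimates over 3 replicates, bars are SE and filled points have an adjusted p below 0.05, among them Dmc1 at 1.89 on the left and 1.51 in the middle, and Mlh3 alone, at 0.78, on the right.

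The study also called windows for H3K4me3 and H3K27me3 from its earlier libraries of GV oocytes. These calls come as 1 call per window without replicates, so they are described and not tested. Over the 190 windows of the 10 genes, 88 were called for H3K36me3 (46.3%), 37 for H3K4me3 (19.5%) and 25 for H3K27me3 (13.2%), and 63 carried no mark (33.2%). Over the 517016 windows of all protein-coding genes the shares were 51.2%, 26.2% and 25.9%, with 15.9% unmarked. No window of the 10 genes was called for both H3K36me3 and H3K27me3, a pair found in 3.17% of the windows of protein-coding genes. H3K4me3 and H3K27me3 together, without H3K36me3, were called in 15 windows (7.89%), 8 of them in Stra8. The share over the windows of protein-coding genes was close to this, 8.77%.

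Of the 10 gene starts, 9 lay in a window called for H3K4me3 (78% of protein-coding genes), the exception being Spo11. H3K27me3 was called at 5 starts (32.9% of protein-coding genes), namely Stra8, Meioc, Spo11, Sycp1 and Hormad1, and 4 of these were called for both marks (25.9%). H3K36me3 was called at 1 start, that of Sycp2 (22.8%). The 5 genes with H3K27me3 at the start had H3K36me3 levels from 0.195 to 0.605, and the 5 without it levels from 0.858 to 2.41. This is a description of these 10 genes only, since levels of all protein-coding genes split in this way are not given here. Along the gene body, all 10 genes had at least 1 window called for H3K4me3 (87.1% of protein-coding genes), 5 had at least 1 called for H3K27me3 (44.5%), 6 had at least 1 called for H3K36me3 (72.2%) and 4 had none of the last (27.8%). Dmc1 and Sycp2 had at least 9 in 10 windows called for H3K36me3 (22.4%), and Stra8 and Spo11 had every window called for H3K27me3 (10.8%).

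**Figure D4:**
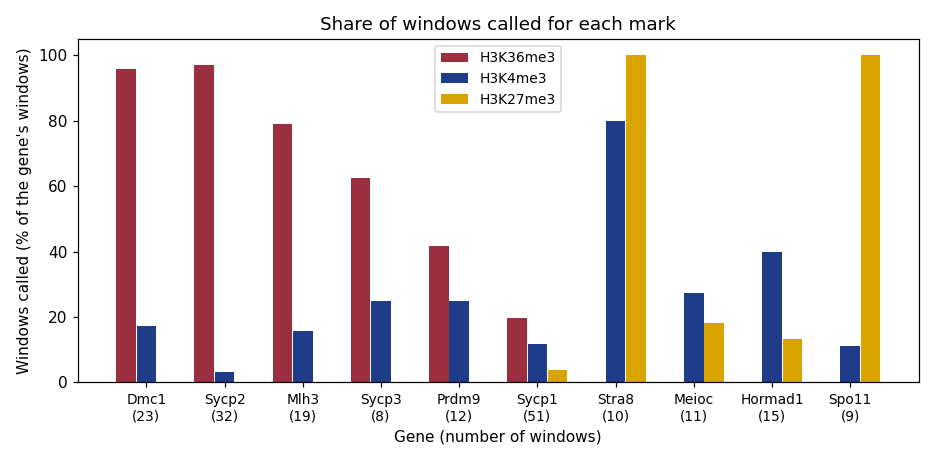
Share of a gene's windows called for H3K36me3, H3K4me3 and H3K27me3 (percent, vertical axis) for each of the 10 genes, ordered by H3K36me3 level, with the number of windows in brackets; calls have no replicates and so no error bars. H3K36me3 falls from 95.7% of windows in Dmc1 and 96.9% in Sycp2 to 0% in Stra8, Meioc, Hormad1 and Spo11, and H3K27me3 is at 100% in Stra8 and Spo11.

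The 10 genes were set among 61 genes of meiotic prophase, grouped by role, to show where each stood among its partners. These lists were drawn up with earlier results of these data known and are described by counts and medians alone. Over the 61 genes the median level was 1.51 and 39 were above 1. Over the 51 that are not among the 10 it was 1.63 with 35 above 1. Of all protein-coding genes, 53.8% were above 1. The 10 genes themselves had a median of 0.731, and all protein-coding genes one of 1.16. Against intergenic windows, 41 of the 61 were higher and 5 lower (limma, as above), beside the 56.7% and 18.9% of all protein-coding genes. The same shares are the background for the counts of each list below.

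Among 8 genes listed under entry the median was 1.25, with 5 higher than intergenic windows and none lower. This list is a loose one: Figla, also counted among the oocyte markers above, and Rec8 are among its 5 higher genes. The reader of methylated RNA Ythdc2 was highest, at 2.12 ± 0.20, although its partner Meioc was at 0.409, and the germ line transcription factor Sohlh1 was lowest, at 0.330 ± 0.173. Among 10 genes of break formation the median was 1.19, with 6 higher and 3 lower. Zcwpw1, which reads the marks that PRDM9 writes, was highest at 2.93 ± 0.43, and Spo11 was lowest. Its partner in the break-making complex, Gm960 (Top6bl), was also called lower, at 0.406 ± 0.156 (limma adjusted p = 0.0313). So was Mei4, at 0.418 ± 0.049 (limma adjusted p = 0.00156). Among the 6 called higher were Rec114 at 1.85 ± 0.13, Ankrd31 at 1.66 ± 0.11 and Ccdc36 (Iho1) at 1.51 ± 0.08.

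Strand exchange had the highest median of the prophase lists, 1.92 over 12 genes, with 9 higher and none lower. Dmc1 was at 2.41, 4930432K21Rik (Brme1) was highest at 2.71 ± 0.17, and Spata22 was lowest at 0.335 ± 0.122. All 10 windows of Spata22 are shared with other annotated genes, so its level cannot be told apart from theirs. Synapsis had a median of 1.05 over 11 genes, 6 higher and 2 lower. Within the synaptonemal complex the central element gene Syce2 was highest, at 2.82 ± 0.47, and another central element gene, Syce1, was lowest, at 0.134 ± 0.023, with 5 of its 6 windows called for H3K27me3.

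Crossover genes had a median of 1.76 over 12 genes, with 9 higher and none lower. Rnf212, which stabilises crossover intermediates, was highest at 2.39 ± 0.25, and Prr19 was lowest at 0.307 ± 0.218. Axis cohesin and telomere attachment genes had a median of 1.70 over 8 genes, with 6 higher and none lower, from Terb2 at 0.401 ± 0.166 to the cohesin subunit gene Stag3 at 2.68 ± 0.25. Gm960, named as a partner of Spo11, and Figla, Rec8, Mei4, Rec114, Ankrd31 and Ccdc36 were named after their values were seen.

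For genes used later, in prophase arrest and its resumption, the median was 2.08 over 15 genes. Of these, 14 were higher than intergenic windows and none lower (56.7% and 18.9% of all protein-coding genes were). The exception was Btg4, at 0.501 ± 0.065. Of its 30 windows 21 are shared with other annotated genes, so this level is not that of Btg4 alone. The highest was Cdc25b, the phosphatase that activates CDK1, at 2.85 ± 0.26.

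**Figure D5:**
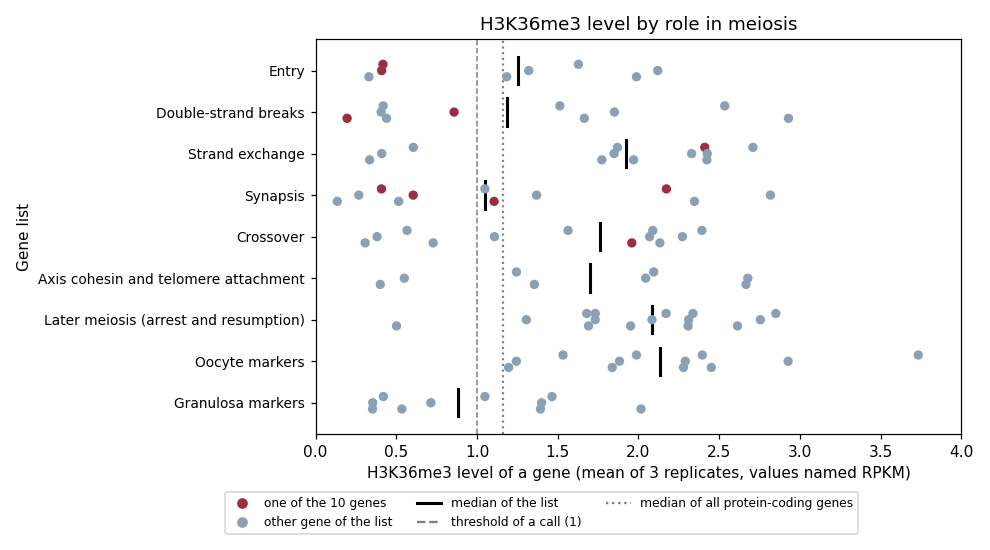
H3K36me3 level (mean of 3 replicates, horizontal axis) of single genes in each role list (rows), with the 10 genes described here in red, others in grey-blue and list medians as black bars. The dashed line is the threshold of 1 and the dotted line the median of all protein-coding genes (1.16), and strand exchange (median 1.92) and later meiosis (2.08) lie mostly to the right of both.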

How the data were processed

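H3K36me3 was measured in 3 pools of GV oocytes with ultra-low input native ChIP-seq. As described in the study's methods, the authors trimmed reads with TrimGalore, mapped them to GRCm38 with Bowtie2 (version 2.2.9, per the submitters' processing notes) and quantified 2 kb windows in SeqMonk, leaving out windows with extreme values in input chromatin. How duplicate reads were treated is not given in the sources used here. The deposited values are named RPKM by the authors, per replicate and on a linear scale. All were whole multiples of the value of 1 read (100% within 0.0001 reads), and the reads in windows came to 1.07 times the total implied by CPM scaling, so the values were taken as proportional to reads in windows of a fixed length; the exact scale is not settled. The deposited category table holds 1 call per window and mark, and its H3K36me3 call was identical to a mean above 1, with 0 windows differing.

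The level of a gene was the mean over valid windows overlapping it by at least 1 base (GENCODE M21). Log2 differences, log2(level + 0.1), were tested with limma 3.58.1 (R 4.3.3) in a two-sided moderated test of the intercept, with the variance trend on the log2 reads behind a value, over all protein-coding genes with at least 2 windows and with Benjamini-Hochberg adjustment over all genes. This trend was chosen on simulated data with known changes. A fold change on this scale understates the change of low genes. Named genes are the 10 genes, the highest and lowest of each role list, and genes that share windows with the 10 genes; neighbours that share none, and genes said to be so in the text, were named after their values were seen. Promoter sequences are from RefSeq (GRCm38.p6). The 10 genes, the lists and the tests were chosen with earlier results of these data known. Alternatives were other pseudocounts (0.02 and 0.5), references, window rules, flanks, thresholds and each replicate left out. Calculations used Python 3.11.15.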

Additional observations from a re-analysis of the deposited data

How the results depend on the processing

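No paired analysis was possible because all samples belong to a single group. Depth limits the low genes, since Spo11 rests on 29 reads in all, and 3 pools limit every test. Of 208 alternative values for single-gene tests, 173 kept their direction and call. With the direction kept, 20 lost the call and 5 gained it. The other 10 changed direction and were counted so whether or not their call also changed, which it did for some. Of 70 alternative values for summaries, 51 stayed close and 19 moved. The cause of the changes was not tested except where fewer samples or windows entered by construction. A planned count test on reads recovered from the values is not reported, because the deposited unit is a normalised one.

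The median level of the 10 genes was 0.731, and it became 0.783 with windows whose midpoint is in the gene, 0.605 with windows of no other gene (Sycp3 has none), 0.572 with the median over windows and 0.784 without the gene start. With a threshold of 2, the genes above it numbered 2 instead of 4, and the windows enriched for H3K36me3 46 instead of 88. Genes above intergenic windows numbered 3 instead of 5 with the mean of all valid windows as reference and 3 with windows of no other gene, and genes below numbered 5 instead of 1 with the former. With that reference Prdm9 was at -0.072 (limma adjusted p = 0.697) and Sycp1 at -0.51 (adjusted p = 0.00177), and the genes of the whole table called lower rose from 3834 to 6679. A reference of intergenic windows at least 10 kb from any gene, chosen after seeing the data, changed no call of the 10 genes.

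Against flanks, genes higher ranged from 2 to 3, instead of 4, and genes lower from 0 to 2 when a replicate was left out, and genes lower numbered 4 with flanks of 20 kb and 0 with flanks of 5 kb. Stra8 was at -1.35 with flanks of 20 kb (limma adjusted p = 0.00457) and between -0.24 and 0.52 with a replicate left out, against 0.19 in the main test, and was below 0 without replicate 2. Sycp3 was at 0.000483 with flanks of 5 kb, at -0.58 with flanks of 20 kb (limma adjusted p = 0.0347) and between -0.24 and 0.11 with a replicate left out, above 0 without replicate 2. Genes with a rise along the gene numbered 0 in every fit with a replicate left out (0 to 0) and 0 with windows of no other gene, instead of 1. Without replicate 1 that limma fit called 0 of all genes in either direction, with 3078 higher and 646 lower at an unadjusted p under 0.05, against 2917 and 436 called with all 3 replicates; it was run with no other tool. With a replicate left out, the difference along the gene ran from -0.48 (without replicate 2) to 0.67 for Spo11, from -0.27 to 0.012 (without replicate 3) for Dmc1, and from -0.15 (without replicate 1; -0.11 without replicate 3) to 1.11 for Sycp3. The median of the 61 prophase genes, 1.51, became 1.34 with the median over windows.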
